A study of Mus musculus with 18 samples.

Results

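Polycomb repressive complex 2 (PRC2) was followed as 10 genes in mouse P19 embryonic carcinoma cells whose Dicer was left intact, disrupted on 1 allele, or reduced to a single hotspot-mutant allele. The genes were chosen by symbol: the methyltransferases Ezh1 and Ezh2, the core subunits Eed and Suz12, the histone-binding subunits Rbbp4 and Rbbp7, and the accessory subunits Mtf2, Phf19, Jarid2 and Aebp2. All 10 were present among the 55450 genes of the expression table, and all 10 passed the filter on low values in each comparison. The mRNA of 18 samples was measured by RNA-seq, 6 of each line. The WT line carried the genotype Dicer (+/+). The HetKO line, Dicer (+/-), had a CRISPR frameshift truncation in 1 allele. The HM line, Dicer (HM/-), carried the same kind of truncated allele, and its other allele had been edited to a hotspot missense mutation in the RNase IIIb domain, the domain of Dicer that cuts the 5p arm of a miRNA precursor. The HetKO and HM lines were engineered from P19 and each line is a single line, so the genotype cannot be told apart from other properties of that line. The study's methods state that a miRNA cluster was silent in the HM line for a clonal reason.

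PRC2 places methyl groups on lysine 27 of histone H3, a mark of silent developmental genes. Ezh1 or Ezh2 carries the catalytic SET domain, Eed binds the methylated histone tail and stimulates the enzyme, Suz12 is the scaffold, and Rbbp4 or Rbbp7 binds histones. The core then joins 1 of 2 sets of accessory subunits: PRC2.1 contains a Polycomb-like protein such as Mtf2 or Phf19, which read methylated histones and bind CpG-rich DNA, and PRC2.2 contains Jarid2 and Aebp2, which bind nucleosomes that carry ubiquitinated H2A. In pluripotent cells Ezh2 is the main methyltransferase, and Ezh1 is better known from cells that divide slowly.

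The values are TPM, a length-corrected share of a sample's transcripts, so levels can be set side by side between genes, and the depth of the samples is unknown. Dicer1 itself was measured at 52.3 ± 2.09 TPM in WT, 48.0 ± 4.1 in HetKO and 40.3 ± 3.18 in HM (mean ± SD, n = 6 each). Pou5f1, a defining marker of embryonic carcinoma cells, averaged 2040.2 to 2095 TPM in the 3 lines. The summed markers of other cell types ranged from 1.0 to 4.28 TPM for endoderm, from 4.11 to 115 TPM for mesoderm, from 26.6 to 58.4 TPM for neural cells and from 3.91 to 16.1 TPM for fibroblasts. Samples of a line came as 3 pairs of close resemblance. In WT and HetKO these were replicates 1 and 4, 2 and 5, and 3 and 6, and in HM they were 1 and 4, 2 and 3, and 5 and 6. The pairs were chosen as the matching with the lowest summed spread over 683 abundant genes. A smaller spread within pairs than between them was thus favoured by the choice. Spread is given as a robust SD of the log2 difference, from the median absolute deviation over these genes. It was 0.051 to 0.07 within HetKO pairs and 0.164 to 0.358 between samples of different HetKO pairs. In WT the ranges touched (0.049 to 0.075 within pairs, 0.073 to 0.205 between). The labels do not state whether samples came from separate cultures, and p-values over 6 samples measure the spread between these samples, which may be technical. Results are therefore also given with the 3 pair means of a line as its replicates. The Y-linked genes Uty, Ddx3y, Eif2s3y and Kdm5d were listed at 0 in all 6 HetKO samples, whereas Uty averaged 18.3 ± 1.64 TPM in WT and 18.4 ± 1.82 in HM, the line described as made from HetKO cells.

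The 3′ UTRs of the 10 genes were searched for seed matches of a chosen list of miRNAs, since the hotspot mutation acts on the 5p arm. The list held the 5p strands of miR-7a, miR-15b, miR-16, miR-17, miR-20b and miR-26a. It also held the passenger 3p strands of miR-17, miR-20b, miR-15b and miR-7a-1. For miR-26a the study's text names the strand miR-26a-2-3p, not the 5p strand. Both miR-26a-2-3p and miR-30a-3p, which were part of the study's reporter assays, were not searched. Mature sequences are from RefSeq with the GRCm38.p6 build, and the capitals mark the seed, bases 2 to 8. The sequences below are those with a full 8-base match in the longest annotated 3′ UTR of a member.
miR-7a-5p: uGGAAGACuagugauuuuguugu
miR-17-5p: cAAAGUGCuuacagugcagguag
miR-20b-5p: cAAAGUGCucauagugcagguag
miR-26a-5p: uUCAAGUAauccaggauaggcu
miR-7a-1-3p: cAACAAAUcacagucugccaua
miR-15b-3p: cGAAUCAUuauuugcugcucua
The first 4 are 5p miRNAs, miR-17-5p and miR-20b-5p share a seed, and the last 2 are passenger 3p miRNAs, the strands that are normally discarded from the duplex.

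The matching stretches of the members' mRNAs were read from the GRCm38 genome with GENCODE M21, which matched all 55450 gene identifiers, and each lies in the annotated 3′ UTR of the gene's longest-UTR transcript. They are shown 5′ to 3′ on the gene's strand, with the 8 bases of the match in capitals (the complement of the seed followed by A).
Ezh1, miR-7a-5p, chr11:101192848-101192855, minus strand: gctcctgcaatGTCTTCCAtgctgagaaac
Ezh1, miR-17-5p and miR-20b-5p, chr11:101192009-101192016, minus strand: tagagaacaaaGCACTTTAactctctttta
Ezh1, miR-17-5p and miR-20b-5p, chr11:101191163-101191170, minus strand: gtaaatttcttGCACTTTAaagtcctgtgg
Ezh2, miR-26a-5p, chr6:47530286-47530293, minus strand: tgaataaagaaTACTTGAActtgttgttga
Suz12, miR-26a-5p, chr11:80032871-80032878, plus strand: gtttaggttttTACTTGAAcatgtttttag
Mtf2, miR-15b-3p, chr5:108107230-108107237, plus strand: ggctattaaacATGATTCAtacccatgcat
Phf19, miR-7a-1-3p, chr2:34893791-34893798, minus strand: cttttaataatATTTGTTAtattaaagtta
In these longest 3′ UTRs, an 8-base match to a listed 5p miRNA was found in Ezh1, Ezh2 and Suz12, 3 of the 10 genes. Over 12029 tested genes with a 3′ UTR the share was 16.2%. In Ezh2 and Suz12 the match was to miR-26a-5p alone. An 8-base passenger 3p match was found in Mtf2 and Phf19, against 11.8% of genes. When 7-base matches were included (the complement of bases 2 to 8, or of bases 2 to 7 followed by A), 9 of the 10 genes held a 5p match (57.8% of all genes) and 6 held a passenger 3p match (51.8%). The members' median 3′ UTR of 1878 bases was longer than the 1190 bases over all genes, and longer UTRs offer more positions for a match. Mtf2 was the member without a 5p match. A match is a description of the letters, and binding was not measured here.

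In HM cells the transcripts of PRC2 were lower for both methyltransferases and for Mtf2 and Suz12, and higher for Phf19, Rbbp7, Eed, Jarid2 and Rbbp4. The changes ran from 2.41-fold lower for Ezh1 to 2.19-fold higher for Phf19 on the scale of TPM + 1. Of the 10 genes, 9 passed the test between HM and WT (limma), 5 of them higher and 4 lower in HM. This count is to be read against the background, as 51.4% of all 14043 tested genes passed in this comparison, 19.4% higher and 32.0% lower. The median log2 fold change was 0.23 over the 10 genes and -0.09 over all tested genes. Centring each sample on its median moved the latter to 0.08 and quantile normalization to 0.02, and each of the 10 genes kept its direction under both. Centring made the falls smaller, for Ezh2 from -0.33 to -0.15 and for Suz12 from -0.32 to -0.14 (limma, adjusted p = 0.0356 and 0.0462). Mtf2 moved from -0.43 to -0.25 and Ezh1 from -1.27 to -1.09, and each rise became larger. Under quantile normalization Ezh2 was at -0.41, Suz12 at -0.38, Mtf2 at -0.49 and Ezh1 at -1.18. The HM and WT samples did not overlap for 6 of the 10 genes (Ezh1, Ezh2, Eed, Rbbp7, Mtf2 and Phf19), against 28.5% of all genes. With pair means as replicates, 7 of the 10 genes passed, against 24.3% of all genes. These are bulk measurements, so fewer cells of a type and less RNA per cell cannot be told apart.

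**Figure D1:**
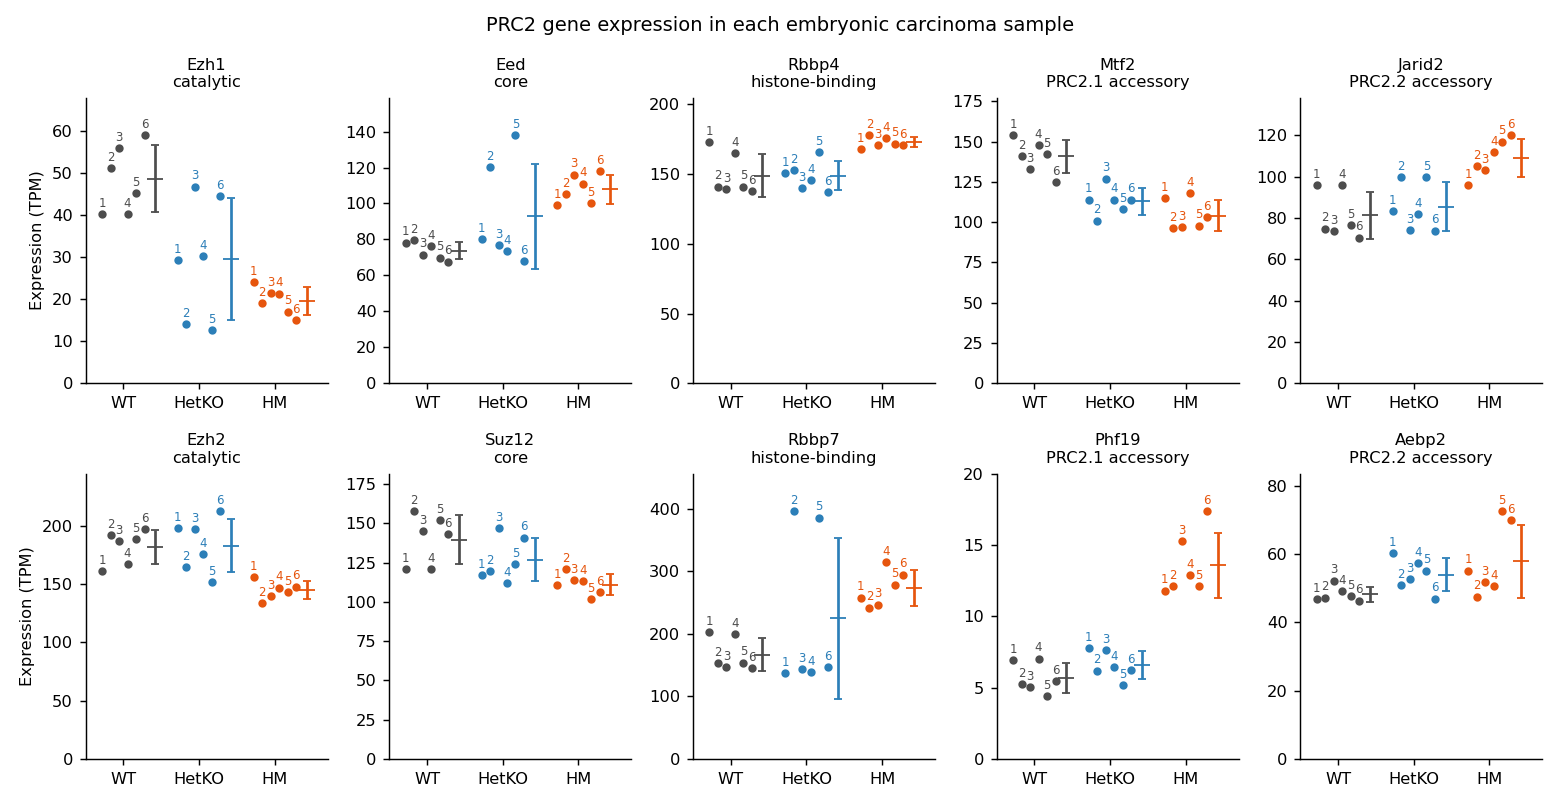
Expression of the 10 PRC2 genes in TPM (vertical axes, from 0) in each of 18 P19 samples, grouped by line on the horizontal axes and numbered by replicate; the bar beside each group is the mean ± SD of 6 samples. Ezh1 sits between 14.9 and 24.0 TPM in HM, under all WT samples, and HetKO replicates 2 and 5 stand at 397 and 386 TPM for Rbbp7, above every other sample.

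Ezh1 (ENSMUSG00000006920.14, chr11:101191115-101226463, minus strand) showed the largest fall among the members. Its 6 WT samples held 40.1, 51.0, 55.9, 40.2, 45.2 and 58.9 TPM in replicate order. The 6 HM samples held 24.0, 19.0, 21.4, 21.3, 17.0 and 14.9 TPM. The highest HM sample was thus well under the lowest WT sample. Ezh1 differed by -1.27 ± 0.13 (log2 fold change ± SE, HM against WT), with an adjusted p of 1.21e-05 by limma and of 0.01 with pair means. In its longest annotated 3′ UTR Ezh1 is the member with 8-base matches to 3 of the 5p miRNAs shown, at 3 separate places. Its shortest annotated 3′ UTR held no 5p match, and held an 8-base match to the seed shared by the passenger miR-17-3p and miR-20b-3p (chr11:101197538-101197545, minus strand).

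Ezh2 (ENSMUSG00000029687.16, chr6:47530139-47595341, minus strand) changed less. WT samples held 161, 192, 187, 167, 189 and 197 TPM, and HM samples held 156, 134, 139.5, 147, 143 and 148 TPM. The lines did not overlap, but WT replicate 1 and HM replicate 1 were only a few TPM apart. Its log2 fold change was -0.33 ± 0.06, with an adjusted p of 0.000614 by limma and of 0.0422 with pair means. In HetKO cells Ezh2 stood at 183 ± 22.8 TPM, against 182 ± 14.6 TPM in WT (log2 fold change 0.01, 95% interval -0.18 to 0.19). Between HM and HetKO, Ezh2 fell by 0.33 on the log2 scale (SE 0.08, adjusted p = 0.00725 by limma), and this call was lost with pair means (adjusted p = 0.155).

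The 2 core partners of the methyltransferases moved in opposite directions. Eed (ENSMUSG00000030619.9, chr7:89954654-89980983, minus strand), which reads the methyl mark and stimulates the enzyme, had a lowest, median and highest value of 67.6, 73.9 and 79.5 TPM in WT and of 98.9, 108 and 118 TPM in HM. No HM sample was as low as any WT sample. Its log2 fold change was 0.54 ± 0.06 (limma, adjusted p = 2.47e-05, and 0.0115 with pair means). Suz12 (ENSMUSG00000017548.15, chr11:79993106-80034123, plus strand), the scaffold without which the complex does not assemble, ran from 121 over a median of 144 to 158 TPM in WT and from 102 over 112 to 121 TPM in HM. Its groups touched at 121 TPM, where WT replicates 1 and 4 met HM replicate 2. Suz12 fell by 0.32 on the log2 scale (SE 0.07, limma, adjusted p = 0.00291), and it did not pass with pair means (adjusted p = 0.0721).

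Both histone-binding subunits rose, Rbbp7 by more than Rbbp4. These 2 proteins are close paralogs that also serve in deacetylase and chromatin assembly complexes. Rbbp7 (ENSMUSG00000031353.13, chrX:162760402-162779092, plus strand) held 203, 153, 147, 199.7, 154 and 145 TPM in WT and 258, 242, 247, 315, 279 and 295 TPM in HM. WT replicates 1 and 4 were the highest of their line and still under every HM sample. The log2 fold change was 0.71 ± 0.1 (limma, adjusted p = 0.000122, and 0.0169 with pair means). Rbbp4 (ENSMUSG00000057236.10, chr4:129307100-129335370, minus strand) ran from 138 over 141 to 173 TPM in WT and from 168 over 172 to 178 TPM in HM. WT replicate 1, at 173 TPM, reached into the narrow HM range. Rbbp4 changed by 0.21 ± 0.06 on the log2 scale (limma, adjusted p = 0.0105), and lost the call with pair means (adjusted p = 0.136) and under quantile normalization (0.13, adjusted p = 0.107). Of the 75-base stretches of the Rbbp7 transcript, 4.93% also occur in Gm6382, which was listed at 0.142 TPM or less on average in each line. The other 9 members shared no such stretch with another gene.

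The 2 Polycomb-like subunits of PRC2.1 moved in opposite directions and from very different levels. Mtf2 (ENSMUSG00000029267.17, chr5:108065674-108109004, plus strand) ran from 125 over 142 to 154 TPM in WT and from 96.2 over 100.3 to 118 TPM in HM, with no overlap. Its log2 fold change was -0.43 ± 0.07 (limma, adjusted p = 0.000255, and 0.0288 with pair means). Phf19 (ENSMUSG00000026873.9, chr2:34893757-34914026, minus strand) held 6.92, 5.23, 5.01, 7.04, 4.43 and 5.47 TPM in WT and 11.8, 12.1, 15.3, 12.9, 12.1 and 17.4 TPM in HM. Every HM sample was above every WT and HetKO sample. The log2 fold change of 1.13 ± 0.12 was the largest rise among the members (limma, adjusted p = 2.21e-05, and 0.0103 with pair means). On the log2(TPM + 1) scale used, the change of a gene as low as Phf19 is understated. Phf19 was also the member that passed between HM and HetKO in every alternative run (log2 fold change 0.95 ± 0.12, adjusted p = 0.000112 by limma, highest adjusted p 0.0255).

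The PRC2.2 subunits were higher in HM by smaller amounts. Jarid2 (ENSMUSG00000038518.15, chr13:44729474-44921643, plus strand), a catalytically inactive member of the Jumonji family, held 95.9, 74.8, 73.8, 96.0, 76.5 and 70.5 TPM in WT and 95.9, 105, 103, 112, 117 and 120.1 TPM in HM. WT replicates 1 and 4 lay at the level of HM replicate 1, and the other 4 WT samples lay below all HM samples. Jarid2 rose by 0.43 ± 0.09 on the log2 scale (limma, adjusted p = 0.0016, and 0.0482 with pair means). Aebp2 (ENSMUSG00000030232.18, chr6:140622663-140678472, plus strand), a zinc finger protein, held 46.7, 47.2, 52.2, 49.0, 47.7 and 46.3 TPM in WT and 55.1, 47.5, 51.8, 50.6, 72.6 and 70.0 TPM in HM. HM replicates 5 and 6, which form a pair, stood above all other samples. Aebp2 was the 1 member that did not pass between HM and WT in the main test (log2 fold change 0.24, 95% interval 0.03 to 0.46, adjusted p = 0.0579 by limma). It passed by limma after centring (0.42, adjusted p = 0.00686) and under quantile normalization (0.25, adjusted p = 0.0336). With all 3 lines in a single fit it also passed (adjusted p = 0.0401 by limma). With pair means it did not (adjusted p = 0.236 by limma).

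**Figure D2:**
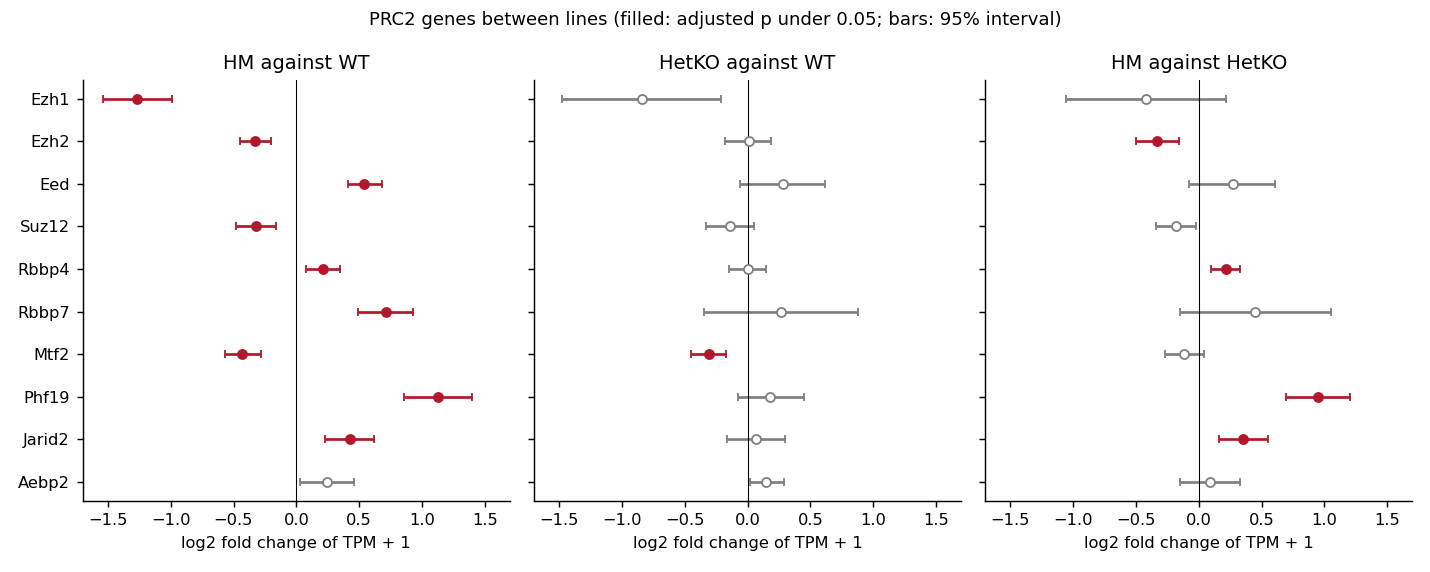
Log2 fold change of TPM + 1 (horizontal axes) for the 10 PRC2 genes between each 2 lines, as points with 95% intervals from limma on 6 samples a line; filled red points have an adjusted p under 0.05. Between HM and WT 9 points are filled, between HetKO and WT only that of Mtf2, and the intervals of Ezh1, Eed and Rbbp7 are wide wherever HetKO samples enter.

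The comparison of HetKO with WT concerns the loss of 1 Dicer allele without the hotspot mutation. The lines also differ in the Y-linked genes listed at 0 in HetKO, so the allele cannot be told apart from other differences. Mtf2 was lower and was the 1 member of 10 that passed, against 10.2% of 13999 tested genes (3.71% higher, 6.44% lower). HetKO samples held 114, 101, 127, 114, 108 and 114 TPM of Mtf2, so HetKO replicate 3 alone reached into the WT range, which starts at 125 TPM. The log2 fold change was -0.31 ± 0.06 (limma, adjusted p = 0.00839), and the call was lost with pair means (adjusted p = 0.335). Between HM and HetKO, Mtf2 differed by -0.12 (95% interval -0.27 to 0.04, adjusted p = 0.218 by limma). Samples did not overlap between HetKO and WT for 0 of the 10 genes, against 8.21% of all genes. HM and HetKO are each set against the same WT samples, so these comparisons are not independent of each other.

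Ezh1, Eed and Rbbp7 did not pass between HetKO and WT, and their HetKO samples were split. For Ezh1 the HetKO samples held 29.3, 14.0, 46.7, 30.1, 12.6 and 44.4 TPM in replicate order. For Eed they held 80.1, 120.3, 76.8, 73.6, 138 and 68.1 TPM, and for Rbbp7 137, 397, 144, 139, 386 and 147 TPM. Replicates 2 and 5 were thus lower than any HM sample for Ezh1 and higher than any HM sample for Eed and Rbbp7, while the other 4 HetKO samples were near the WT values for Eed and Rbbp7. For Ezh1 the other 4 samples were themselves split, with replicates 3 and 6 inside the WT range of 40.1 to 58.9 TPM and replicates 1 and 4 below it. The log2 fold changes between HetKO and WT were -0.84 for Ezh1 (95% interval -1.48 to -0.21, adjusted p = 0.0852 by limma), 0.28 for Eed (-0.06 to 0.62) and 0.27 for Rbbp7 (-0.35 to 0.88). Leaving out replicates 2 and 5 moved the Rbbp7 value to -0.22, with an adjusted p of 0.248 by limma.

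HetKO replicates 2 and 5 stood outside the other 4 HetKO samples for 8 of the 10 members. They were above for Eed, Rbbp4, Rbbp7 and Jarid2 and below for Ezh1, Ezh2, Mtf2 and Phf19. The same held for 59.2% of 13654 genes (23.9% above, 35.3% below), so the split ran through much of the transcriptome. Phf19 was 6.2 and 5.19 TPM in these 2 samples, in the WT range of 4.43 to 7.04 TPM, and far from the HM range of 11.8 to 17.4 TPM. The mesoderm gene T was at 110.5 and 66.2 TPM in the same 2 samples and between 0.94 and 9.13 TPM in the other HetKO samples, and its part in the values of the PRC2 genes was not tested. The 5 mesoderm markers summed to 7.17 to 12.4 TPM in WT, 4.11 to 115 TPM in HetKO and 15.0 to 44.7 TPM in HM.

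The comparison of HM with HetKO sets the hotspot allele beside the loss of 1 allele alone. The Y-linked genes listed at 0 in every HetKO sample were expressed in every HM sample. An effect of the hotspot allele therefore cannot be told apart from other differences between these 2 lines. Here 4 of the 10 genes passed, against 34.6% of 13762 tested genes (14.0% higher, 20.6% lower). Phf19, Jarid2 (log2 fold change 0.35 ± 0.09, adjusted p = 0.0102 by limma) and Rbbp4 (0.22 ± 0.05, adjusted p = 0.00801) were higher in HM, and Ezh2 was lower. The samples did not overlap for Phf19 and Rbbp4, against 15.5% of all genes. With pair means Phf19 alone of the members passed, against 3.3% of all genes. Without HetKO replicates 2 and 5, 7 of the 10 genes passed, 5 higher and 2 lower in HM, while the count over all genes also grew, to 6447 of 13762 (46.8%). The added genes were Rbbp7 (0.93, adjusted p = 1.55e-05 by limma), Eed (0.53, adjusted p = 0.000238) and Ezh1 (-0.89, adjusted p = 0.00169). The calls of these 3 genes between HM and HetKO thus rested on whether that pair of samples was counted.

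WT replicates 1 and 4 also stood apart from the other 4 WT samples for several members. They held the highest WT values of Rbbp4, Rbbp7, Mtf2, Phf19 and Jarid2 and the lowest of Ezh1, Ezh2 and Suz12. For all of these but Mtf2, this is the side on which the HM samples lay. The share of all genes with such a position in WT was not counted, so it cannot be read as particular to the members. Leaving out any single sample kept 9 or 10 members past the threshold between HM and WT, and 6573 to 7350 of all 14043 tested genes. Each such run kept the pair partner of the sample left out, so it cannot show the weight of WT replicates 1 and 4 together.

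The balance within the complex was described from the TPM of the members in the same sample, with no test. Ezh2 made up 79.0% ± 1.71 of the summed Ezh1 and Ezh2 transcripts in WT (77.0 to 80.7%), 86.8% ± 4.79 in HetKO (80.8 to 92.4%) and 88.1% ± 1.67 in HM (86.7 to 90.8%). The summed level of both methyltransferases was 231 ± 21.8 TPM in WT, 213 ± 36.3 TPM in HetKO and 164 ± 9.27 TPM in HM. Every HM sample, up to 180.1 TPM, was under every WT sample, the lowest of which was 201 TPM, and HetKO replicates 2 and 5 were at 179 and 165 TPM. No HetKO or HM sample had an Ezh2 share as low as that of any WT sample, and HetKO replicates 2 and 5, at 92.2 and 92.4%, were above the HM range. The summed level of the HetKO samples spread over both the WT and the HM range.

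Eed stood well under Suz12 in WT and near its level in HM. The ratio of Eed to Suz12 was 0.535 ± 0.0823 in WT, 0.745 ± 0.259 in HetKO and 0.975 ± 0.088 in HM, with HetKO replicates 2 and 5 at 1.01 and 1.12. Rbbp7 took 52.6% ± 1.45 of the summed Rbbp4 and Rbbp7 transcripts in WT and 61.1% ± 2.53 in HM, and 72.1 and 69.9% in HetKO replicates 2 and 5 against 47.6 to 51.9% in the other 4. Among the accessory genes, Mtf2 and Phf19 together held 53.1% ± 1.07 of the 4-gene sum in WT, 46.3% ± 3.97 in HetKO and 41.5% ± 3.4 in HM, and no HetKO or HM sample reached the lowest WT sample of 51.8%. Phf19 was 3.87% ± 0.564 of the PRC2.1 pair in WT and 11.6% ± 2.07 in HM, the minor partner in every sample. The summed level of all 10 genes was 1036 ± 33.5 TPM in WT, 1065 ± 135 in HetKO and 1114 ± 47.1 in HM, and the WT and HM ranges overlapped.

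**Figure D3:**
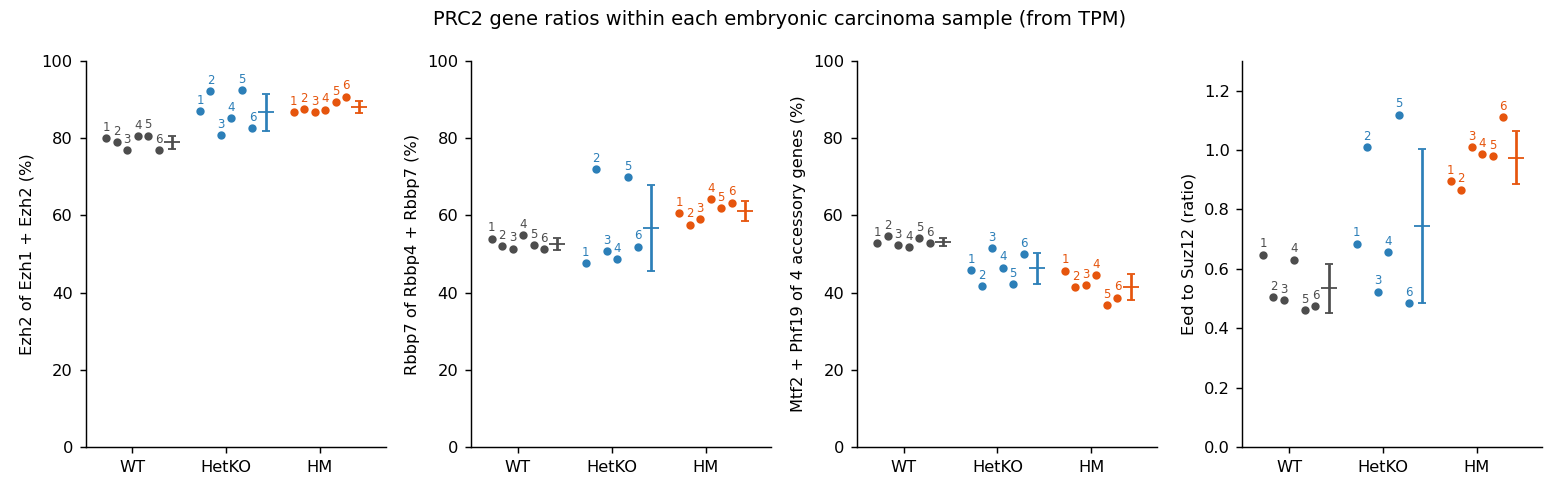
Ratios between PRC2 genes within each of 18 samples, from TPM: 3 panels give a share in percent and the last a plain ratio (vertical axes, all from 0), with samples grouped by line and numbered by replicate and the mean ± SD of 6 samples beside them. Eed to Suz12 stands at 0.46 to 0.648 in WT and 0.867 to 1.11 in HM, and HetKO replicates 2 and 5 sit at 1.01 and 1.12.

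The order of the members by level changed with the line. In WT, Ezh2 (182 TPM), Rbbp7 (167), Rbbp4 (149), Mtf2 (141) and Suz12 (139.7) led, and each overlapped its neighbour in that order. Jarid2 (81.2) and Eed (73.8) followed, overlapping each other and clear of Suz12. Ezh1 (48.6) and Aebp2 (48.2) were alike, and Phf19 (5.68) was last. In HM, Rbbp7 (273), Rbbp4 (173) and Ezh2 (145) led without any overlap between neighbours. Suz12 (111), Jarid2 (109), Eed (108) and Mtf2 (104) then formed a group of overlapping genes, and Aebp2 (57.9) was clear of both sides. Ezh1 (19.6) and Phf19 (13.6) overlapped at the bottom, so that the rare methyltransferase and the rare Polycomb-like gene were of similar level in HM. In HetKO, unlike WT, Ezh2 (183) was under Rbbp7 (225), but only by the mean, as Rbbp7 was above Ezh2 in 2 of 6 samples.

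The tested genes around each member are described by their median, with no test. Within 1 Mb of Ezh1, 66 tested genes had a median log2 fold change between HM and WT of -0.19, with 11 higher and 25 lower, against -1.27 for Ezh1. Around Rbbp7, 6 genes had a median of -0.26, against 0.71 for Rbbp7. Around Eed, the median of 13 genes was -0.28, against 0.54 for Eed, and around Phf19 that of 16 genes was 0.12, against 1.13. For Ezh2, Suz12 and Rbbp4 the neighbours' medians were -0.06, -0.05 and -0.03. Around Mtf2, 23 genes had a median of -0.24, against -0.43 for Mtf2. Around Jarid2 the median of 5 genes was -0.15, against 0.43, and around Aebp2 that of 3 genes was -0.37, farther from 0 than the 0.24 of Aebp2 itself.

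Further subunits that join PRC2 gave a mixed picture. Lcorl, which can encode the PALI2 subunit of PRC2.1, ran from 10.3 to 25.3 TPM in WT and from 5.11 to 8.55 TPM in HM, with no overlap (log2 fold change -1.01, adjusted p = 0.000786 by limma), and was also lower in HM than in HetKO (-0.94, adjusted p = 0.0123), a call that was lost with pair means (limma, 0 of the 4 further subunits tested, 1 at an unadjusted p under 0.05). Its relative Lcor stood at 4.25 ± 0.403 TPM in WT and 5.2 ± 0.742 in HM (0.24, adjusted p = 0.0618). Phf1, the remaining Polycomb-like gene, was low in every line (3.86 ± 0.681 TPM in WT, 3.44 ± 0.321 in HM) and did not pass (-0.12, adjusted p = 0.372 by limma).

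Epop, a PRC2.1 partner that links the complex to elongin, was higher in HetKO than in WT (95.0 ± 29.6 against 51.2 ± 5.91 TPM, log2 fold change 0.83, adjusted p = 0.00913 by limma), with no overlap between these lines. This call was lost with pair means, with all 3 lines in a single fit and by the unequal-variance test, each of which called 0 of the 4 further subunits between HetKO and WT (1 at an unadjusted p under 0.05 in each). In HM its samples fell into separate levels, 39.9 and 36.4 TPM in replicates 1 and 4 and 111 to 126 TPM in the other 4. It did not pass between HM and WT (0.68, adjusted p = 0.0847). Ezhip, an inhibitor of the methyltransferase that the table lists under its older symbol AU022751, was at 0.05 to 0.55 TPM in all samples and was not tested.

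PRC1, the complex that ubiquitinates H2A and works beside PRC2, showed changes in either direction. Of 23 tested subunits 7 were higher and 6 lower in HM than in WT (8 and 6 after centring each sample on its median), with a median of 0.01. This is 56.5% called (60.9% after centring), near the 51.4% of all tested genes (52.6% after centring). The lower genes included Pcgf5 (log2 fold change -0.79, adjusted p = 0.000378 by limma) and Pcgf1 (-0.75, adjusted p = 0.00116), which define variant PRC1 complexes. In HetKO 1 of the 23, Pcgf2, passed against WT, where 10.2% of all genes passed. With pair means 6 of the 23 passed between HM and WT, 1 higher and 5 lower, against 24.3% of all genes. At 1.5-fold or more 5 of the 23 passed, all of them lower, against 21.4% of all genes. The Pcgf2 call was lost with pair means (limma, 0 of 23 between HetKO and WT, 1 at an unadjusted p under 0.05).

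Of the enzymes that remove the marks of PRC2 and PRC1, listed with partner genes of the H2A deubiquitinase, 6 genes were tested and 1 passed between HM and WT. Over all tested genes 51.4% passed. Kdm6b, an H3K27 demethylase, fell from 53.6 ± 4.52 to 41.0 ± 9.33 TPM (log2 fold change -0.4, adjusted p = 0.0154 by limma), and HM replicates 2 and 3 were at 54.1 and 51.8 TPM, in the WT range. With pair means 0 of the 6 passed between HM and WT by limma, and 0 had an unadjusted p under 0.05. Over all genes 24.3% passed with pair means. After centring, 4 of the 6 were called, each of them higher, so the direction of this group rested on the scaling. Over all genes 52.6% were called after centring. The Y-linked paralog Uty was listed at 0 in HetKO as given above, and Kdm6a was at 36.5 ± 3.37 TPM there, 42.6 ± 3.15 in WT and 44.5 ± 5.35 in HM.

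The H3K36 methyltransferases, whose mark hinders PRC2, were split as well, with 2 of 5 higher and 2 lower in HM than in WT. Over all tested genes 19.4% were higher and 32.0% lower. Nsd1 held 52.9 to 61.0 TPM in HM against 26.2 to 43.4 TPM in WT (log2 fold change 0.85, adjusted p = 0.00014 by limma). Nsd3 (-0.47, adjusted p = 7.89e-05) and Nsd2 (-0.36, adjusted p = 0.00128) were lower, with no overlap between the lines. With pair means 3 of the 5 passed, 1 higher and 2 lower, against 24.3% of all genes.

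Rbbp4 and Rbbp7 are shared with other complexes, of which 23 partner genes were tested. In HM, 4 were higher and 7 lower than in WT, and after centring 10 were higher and 5 lower. This is 47.8% called (65.2% after centring), against 51.4% of all tested genes (52.6% after centring). Hat1, the acetyltransferase that Rbbp7 partners, moved against Rbbp7: it was at 173 to 190.2 TPM in WT and at 88.9 to 96.7 TPM in HM (log2 fold change -0.97, adjusted p = 7.8e-09 by limma). The NuRD subunits Mta1 (-0.67, adjusted p = 9.23e-06) and Chd3 (-0.62, adjusted p = 0.00327) were also lower in HM. Of the 23 genes, 1 (Lin54) passed between HetKO and WT, against 10.2% of all genes. With pair means 2 were higher and 4 lower between HM and WT (26.1% called, against 24.3% of all genes). In the same setting 0 of the 23 passed between HetKO and WT (limma, 0 at an unadjusted p under 0.05).

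Of 34 developmental genes known as Polycomb targets in pluripotent cells, 22 in WT and 25 in HetKO and in HM were under 1 TPM in every sample. Only 8 were tested between HM and WT, of which 37.5% passed, against 51.4% of all tested genes. Wt1, a kidney and gonad transcription factor, was at 4.84 ± 2.81 TPM in HM and 1.4 ± 0.652 in WT (log2 fold change 1.13, adjusted p = 0.0166 by limma), and its HM replicates 1 and 4 stayed in the WT range at 1.03 and 1.8 TPM. Hoxd13 was higher (0.52, adjusted p = 0.0128) and Gata6 lower (-0.83, adjusted p = 0.00625). With pair means 0 of the 8 passed between HM and WT (limma), and 2 had an unadjusted p under 0.05. Between HetKO and WT 5 were tested and 2 passed, both lower (40.0%, against 10.2% of all genes). With pair means 0 of these 5 passed (limma, 2 at an unadjusted p under 0.05). Between HM and HetKO 3 of 7 were higher and 1 lower in HM (57.1%, against 34.6%). With pair means 1 of these 7 passed (14.3%, against 3.3%). The filter on low values was applied per comparison, so the tested genes differed. Protein and histone methylation were not measured in these samples.

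Proliferation genes are given because Ezh2, Rbbp4 and Rbbp7 are known to be high in dividing cells. Of 16 tested, 4 were higher and 7 lower in HM than in WT (7 and 3 after centring). The share called was 68.8%, against 51.4% of all tested genes. Their summed level was 3385 to 3508 TPM in WT, 3303 to 3439.7 TPM in HetKO and 3212 to 3438 TPM in HM. The largest differences were rises of the cyclins Ccne1 (log2 fold change 1.47, adjusted p = 1.24e-05 by limma) and Ccne2 (1.35, adjusted p = 9.15e-06) and a fall of E2f1 (-0.86, adjusted p = 0.000187). Of the 8 embryonic carcinoma markers, 3 were higher and 2 lower in HM (62.5% called). Among them Sall4 (-1.83, adjusted p = 0.0122 by limma), Nanog (-1.24, adjusted p = 0.000903) and Utf1 (0.81, adjusted p = 0.000704) differed most. With pair means 2 proliferation genes were higher and 4 lower in HM, and 2 embryonic carcinoma markers were higher and 1 lower. In each of these lists 37.5% were called with pair means, against 24.3% of all genes. Among markers of other cell types, T (1.8) and Mixl1 (0.4) were higher and Tbx6 (-1.01), Gata6, Map2 (-1.08) and Col1a2 (-0.8) lower in HM than in WT, with adjusted p-values from 8.25e-05 to 0.0425 by limma. With pair means the calls of Gata6 and Col1a2 were lost (limma, 0 of 1 endoderm and 0 of 4 fibroblast genes tested, with 1 gene of each list at an unadjusted p under 0.05), and 2 of the 3 mesoderm genes passed. The part of these genes in the values of the PRC2 genes was not tested.

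**Figure D4:**
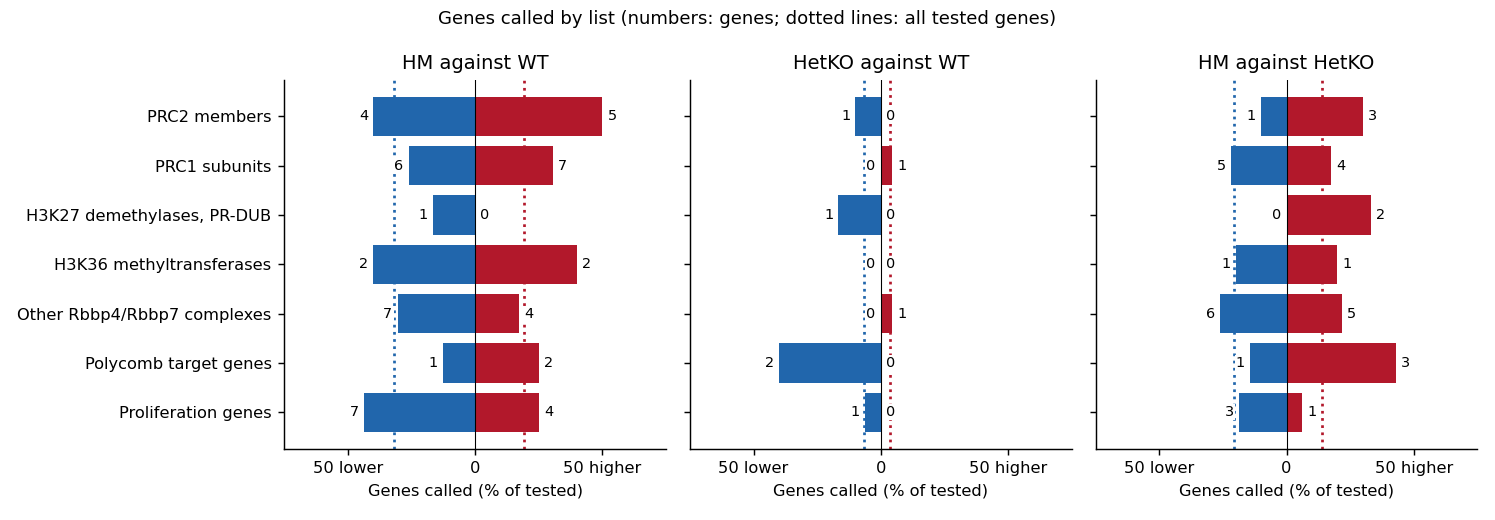
Share of tested genes called higher (red, right) or lower (blue, left) in percent for the PRC2 members and 6 other gene lists in each comparison, with the number of genes beside each bar; dotted lines mark the share over all tested genes. Between HM and WT the PRC2 bars, 5 higher and 4 lower, both reach past the dotted lines at 19.4% and 32.0%.

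The genes whose log2(TPM + 1) followed Ezh2 most closely over the 18 samples were Knstrn (Pearson r = 0.948), Ckap5 (0.946), Pik3ip1 (0.945), Polg2 (0.943) and Cd63 (0.94). Knstrn and Ckap5 encode proteins of the mitotic spindle. Of 13946 genes compared, 109 had an r of at least 0.9, and the samples share their lines and pairs, so these values are a description. As the genes were chosen for their likeness to Ezh2, no test is given for them. Ckap5 stood at 115 ± 11.3 TPM in WT and 83.6 ± 7.06 TPM in HM.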

How the data were processed

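TPM values per gene were deposited by the authors, who merged read pairs with BBMerge and quantified genes with RSEM from poly(A) libraries of a stranded kit. The submitters' processing notes name cutadapt, STAR and mm10 without versions. TPM is relative to each sample's total (999999.15 to 1000000.48) and keeps no depth, so the counting error is unknown. The test was run on log2(TPM + 1), for genes averaging 1 TPM or more across both lines compared, with limma 3.58.1 (R 4.3.3, variance trend), with Benjamini-Hochberg adjustment over all tested genes and a threshold of 0.05. On simulated data with 200 of 14043 genes changed 1.5-fold between HM and WT, 127 were recovered with 5 false calls. The simulated samples were independent and held no alike pairs, so these counts do not give the error rate in the real samples. Alternatives covered the pseudocount, filter, scaling, test, replicate block, pair means and left-out samples. The members and lists were chosen with earlier results of these data known. Named were all members and associated factors, up to 3 called genes of each other list with the largest change between HM and WT, and the 5 genes most like Ezh2. A result that this rule would name is not reported here. Genes named beyond that rule (Pcgf2, Lin54, Kdm6a and the Y-linked genes) were chosen after their values were seen.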

Additional observations from a re-analysis of the deposited data

Results flagged for a closer look

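In groups of 6 samples, 5 of 162 groups held a sample whose gap to its neighbour exceeded 0.625 of the range (Dixon's critical value). Independent samples would give about 8.1, but these samples form alike pairs, and 2 alike samples hide each other from this rule. HetKO replicates 2 and 5 for Rbbp7 (397 and 386 TPM against 137 to 147 in the others) were thus not flagged. No PRC2 member was flagged, which does not show that their samples were even. HM replicate 4 was low for Mta1, at 47.6 TPM against 57.0 to 60.7 in the others. HetKO replicate 3 was high for Wt1, at 0.81 TPM against 0.28 to 0.47. HM replicate 1 was high for Map2 (5.65 TPM against 2.83 to 3.61), Knstrn (91.2 against 77.6 to 80.5) and Pik3ip1 (7.85 against 2.53 to 4.2).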

How the results depend on the processing

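Between HM and WT no PRC2 member reversed, and 206 of 220 member values over all alternatives kept their side of the threshold (limma unless named). Requiring a 1.5-fold change left 3 of 10 members (Ezh1, Rbbp7 and Phf19) and 3008 of 7220 genes, and pair means left 7 members and 3414 genes. Between HetKO and WT, 1421 genes became 852 by the unequal-variance test, 666 at 1.5-fold and 35 with pair means. Members called went from 1 to 2 with all 3 lines in a single fit, where Ezh1 passed (adjusted p = 0.045, range over the alternatives 0.0432 to 0.511), and to 0 at 1.5-fold (3 at an unadjusted p under 0.05) and with pair means (1 at an unadjusted p under 0.05). Left-out samples gave 1 to 2, with 2 without HetKO replicate 3, and 948 to 1517 of all 13999 tested genes. Values near 0 changed sign here: Ezh2 -0.04 under quantile normalization and -0.04 to 0.06 with single samples left out, Rbbp4 0.05 after centring and -0.03 to 0.04 with single samples left out, and Rbbp7 -0.22 and Jarid2 -0.04 without HetKO replicates 2 and 5. Between HM and HetKO, 4765 genes became 2099 at 1.5-fold and 454 with pair means, and the 4 members became 1 and 1, and 7 without HetKO replicates 2 and 5. The share of calls that were higher in HM than in WT was 37.7%, 61.0% after centring and 51.1% under quantile normalization (HetKO against WT 36.5, 50.7 and 48.1%, HM against HetKO 40.4, 60.9 and 49.3%). Members with a 5p match went from 9 to 3 with 8-base matches alone and to 5 in the shortest 3′ UTR (37.9% of all genes). Those with a passenger 3p match went from 6 to 2 with 8-base matches and to 4 in the shortest 3′ UTR (33.0% of all genes). The shortest 3′ UTR had a median of 392 bases in members and 450 over all genes. Deviations of same-numbered samples correlated weakly, with a mean r of 0.005, 0.062 and 0.021 in the 3 comparisons. Of 12 samples, 2, 7 and 2 correlated best with their own number. Between HetKO and WT, the comparison with 7, every r was above 0 (0.025 to 0.116), so the numbers may carry some structure there. They were not taken to pair the samples in the main test. The replicate block called 9, 1 and 4 members and 6889, 1206 and 4200 genes between HM and WT, HetKO and WT, and HM and HetKO. TPM keeps no depth, so the counting error of low genes such as Phf19 could not be set apart from other spread.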
